A study of Homo sapiens with 6 samples.

Results

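The genes described here encode the LKB1 kinase complex and the AMP-activated protein kinase (AMPK) that it switches on. They were measured in SW480, a human colorectal adenocarcinoma cell line, after knockdown of the transcriptional repressor ZEB1. The members were the 10 genes CAB39, CAB39L, STK11, STRADA, STRADB, PRKAA1, PRKAA2, PRKAB1, PRKAB2 and PRKAG1, taken by name from the 32029 genes listed in the deposited tables, and each was found once. RNA was sequenced from 3 cultures given a control siRNA (siControl, labelled siNC, with the genotype WT) and 3 cultures given an siRNA against ZEB1 (siZEB1, labelled as a ZEB1 knockdown). RNA was collected 48 h after transfection in both groups. Only 1 cell line was used, and the sequences of the siRNAs are not given in the sources used here. The question for these genes was which parts of the LKB1 and AMPK complexes changed in RNA level when ZEB1 was lowered.

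LKB1, the product of STK11, is a tumour-suppressor kinase that phosphorylates AMPK and a family of related kinases. LKB1 is active as a trimer with a STRAD pseudokinase, encoded by STRADA or STRADB, and the scaffold protein MO25, encoded by CAB39 or CAB39L. AMPK senses low cellular energy through its gamma subunit, is catalysed by an alpha subunit and is held together by a beta subunit, and once active it slows lipid and protein synthesis and promotes glucose uptake and autophagy. Both complexes can therefore be assembled from alternative paralogs, and ZEB1 is known to repress genes by binding E-box sequences in their regulatory regions.

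Total counts per culture were between 19040636 and 22357633. The reads of ZEB1 itself were 1247, 1276 and 908 with siControl, against 136, 132 and 162 with siZEB1. Its level was 54.2 ± 6.24 CPM (reads relative to the TMM-adjusted size of the library, SD, n = 3) in siControl and 7.51 ± 0.843 CPM in siZEB1, which is -86.2% (adjusted p = 4.85e-12, edgeR quasi-likelihood test). The cultures carried the epithelial markers unevenly. KRT8 was the highest of 10 colorectal epithelial markers, whose summed level was 4856 to 5476 CPM in siControl and 5362 to 6031 CPM in siZEB1, and 3 of the 10 (LGR5, KRT20 and CDH17) were below 1 CPM in every culture. EPCAM rose from 54.7 ± 2.29 to 453.6 ± 14.1 CPM and CDX2 fell from 102.5 ± 7.08 to 41.8 ± 2.66 CPM, and the part of such marker changes in the results was not tested. Of 9 markers of leukocytes, endothelium and fibroblasts, 7 were listed, and their summed level was 12.5 to 14.3 CPM in siControl and 10.6 to 12.5 CPM in siZEB1. The third culture of each group stood apart from the other two of its group. Squared differences in counts were compared with the variance of sampling noise (chi-square over degrees of freedom). This ratio was 3.66 between siControl 1 and 2, against 9.72 and 7.30 for siControl 3 with each of them. It was 2.28 between siZEB1 1 and 2, against 5.0 and 7.10 for siZEB1 3. Results that rest on these cultures are given below with and without both of them, a setting chosen after seeing the data.

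Of the 10 members, 5 passed the test at an adjusted p under 0.05, and 2 of them were higher and 3 lower in siZEB1. CAB39L and PRKAB1 rose, and STRADB, PRKAG1 and STK11 fell. CAB39L and STRADB had the largest changes, close to a doubling and a halving of the RNA level. Over all 14996 genes tested, 40.2% passed the same test, 19.0% as higher and 21.2% as lower, so the share of members called was near that of the whole transcriptome. The groups did not overlap for 5 of the 10 members, where 49.5% of all genes tested had groups that did not overlap. The median log2 fold change was -0.018 over the members and -0.0055 over all genes tested. In bulk RNA, fewer cells expressing a gene and less of its RNA per cell cannot be told apart.

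**Figure D1:**
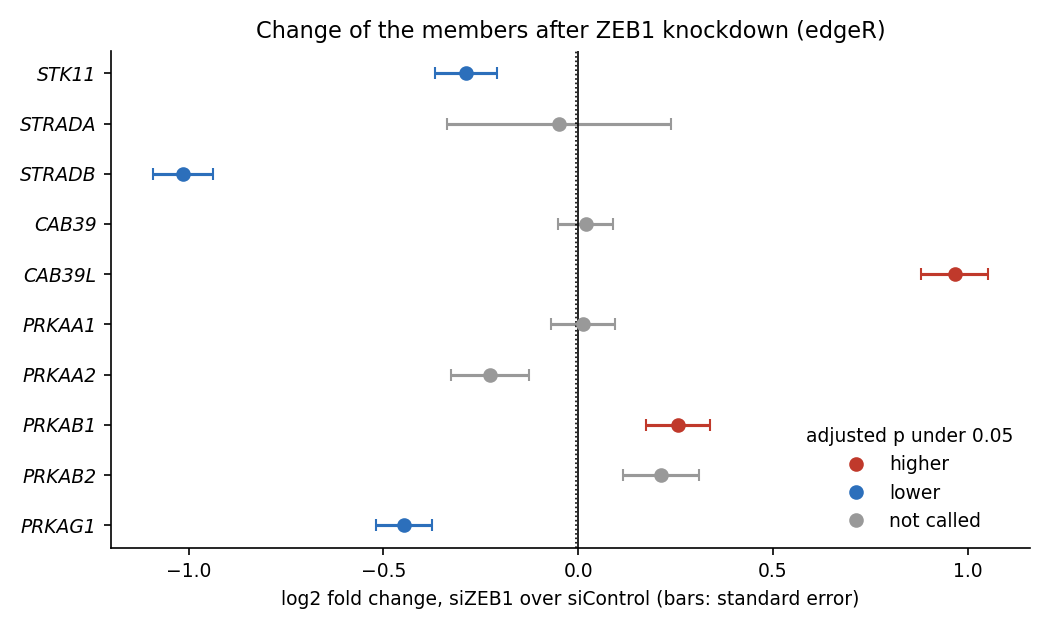
Log2 fold change of each member, siZEB1 over siControl, from edgeR, with bars for the standard error, coloured by whether the adjusted p was under 0.05; the dotted line is the median of all 14996 genes tested, at -0.0055. CAB39L at 0.97 and STRADB at -1.01 lie farthest from zero, in opposite directions, and STRADA has the widest bar (SE 0.29).

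CAB39L and STRADB are the members with the largest changes, and both encode partners of LKB1. The 250 bases before their RefSeq start sites are shown because ZEB1 binds some forms of the E-box. Capitals mark each CANNTG, the general E-box, with N any base. A CANNTG is not by itself a ZEB1 site, and the CAB39L and STRADB windows held neither CACCTG nor CACCTA. Sequences are from RefSeq on GRCh38.p14 and are written 5′ to 3′ on the strand of the gene. CAB39L lies at chr13:49401543-49401792 on the minus strand, STRADB at chr2:201451490-201451739 on the plus strand, and PRKAA2, which held the only CACCTG among the 9 members with a window, at chr1:56645064-56645313 on the plus strand.
CAB39L: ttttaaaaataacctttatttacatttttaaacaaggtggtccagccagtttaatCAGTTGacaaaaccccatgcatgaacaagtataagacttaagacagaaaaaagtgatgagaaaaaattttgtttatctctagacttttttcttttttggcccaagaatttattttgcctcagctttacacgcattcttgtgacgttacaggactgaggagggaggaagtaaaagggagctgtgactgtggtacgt
STRADB: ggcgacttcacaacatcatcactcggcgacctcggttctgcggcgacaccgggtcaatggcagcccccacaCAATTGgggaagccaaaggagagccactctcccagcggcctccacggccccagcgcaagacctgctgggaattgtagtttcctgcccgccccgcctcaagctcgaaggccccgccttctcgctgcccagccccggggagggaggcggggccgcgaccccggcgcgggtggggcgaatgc
PRKAA2: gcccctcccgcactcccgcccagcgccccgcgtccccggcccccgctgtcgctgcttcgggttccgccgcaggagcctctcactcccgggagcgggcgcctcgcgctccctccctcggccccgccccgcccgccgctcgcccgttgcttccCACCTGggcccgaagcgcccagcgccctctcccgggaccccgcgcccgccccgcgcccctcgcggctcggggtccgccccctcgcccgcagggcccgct

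Windows of 250 bases before to 50 after a RefSeq start were found for 9 of the 10 members, with an additional window for CAB39. The CAB39L window was AT-rich. Its GC content was 37.7%, against 61.7% to 82.7% in the windows of the other members and a median of 58.7% over all windows, of which 8.1% were lower than CAB39L. Both strands were searched for CACCTG and CACCTA, which are among the forms bound by ZEB proteins, and CACCTG is itself a case of CANNTG. The form CAGGTA was not part of the search, and the 250 bases before the PRKAB1 start hold it. Of the 9 members, PRKAA2 held CACCTG, at 99 bases before the start (position -99), and none held CACCTA. CAB39L held CANNTG at positions -195 and 10 (the latter beyond the bases shown), and STRADB held it at position -179. Over all 35116 windows, 20.6% held CACCTG, 7.89% held CACCTA and 68.7% held CANNTG. The RefSeq starts of CAB39L, STRADB and STK11 lie well inside their gene models in GENCODE 29, which extend farther upstream, so other starts of these genes were not covered by the windows. The primers with which the study measured ZEB1 at CAB39L by chromatin immunoprecipitation matched neither strand of the CAB39L window. They were also not found in the CAB39L transcript, where each primer was looked for in a single orientation. The region of that assay was therefore not searched here. By that assay the study reported enrichment of the ZEB1/NuRD complex at the promoter region of CAB39L.

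The scaffold genes CAB39 and CAB39L encode the MO25 proteins, which clamp LKB1 onto STRAD and hold it in its active form. CAB39L (ENSG00000102547, chr13:49308650-49444126, minus strand, protein-coding) had 316, 358 and 278 reads in siControl and 525, 590 and 575 reads in siZEB1. Every siZEB1 culture lay above every siControl culture. Scaled, these were 14.9, 16.0 and 14.4 CPM in siControl and 27.8, 30.7 and 30.0 CPM in siZEB1. CAB39L rose from 15.1 ± 0.807 to 29.5 ± 1.51 CPM (SD, n = 3), which is 0.97 on the log2 scale (SE 0.086, adjusted p = 1.4e-07, edgeR quasi-likelihood test). The gap between the groups was several times the spread within either. Without the third cultures the log2 fold change was 0.93.

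The reads counted for CAB39L include the stretch amplified by the qRT-PCR primers of the study, which are shown to place that assay on the gene. By that assay the study reported CAB39L as raised after ZEB1 knockdown. Both primers matched 8 of the 12 annotated CAB39L transcripts, in coding sequence, and spanned 125 bases of the spliced RNA. The forward primer lies in exon 6 of transcript ENST00000610540.4, at chr13:49376994-49377014, and the reverse primer in exon 7, at chr13:49359756-49359776.
CAB39L forward: ggcctgctagtgacactgata
CAB39L reverse: tactccacagtaggactccga

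CAB39 (ENSG00000135932, chr2:230712845-230821075, plus strand), the more abundant scaffold gene, had 147.6, 142.1 and 127.2 CPM in siControl. The siZEB1 cultures had 134.4, 136.2 and 152.0 CPM, inside and just above that range, so the groups overlapped. CAB39 was not called, with a difference of 0.019 on the log2 scale (SE 0.071, adjusted p = 0.855, edgeR quasi-likelihood test).

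Since a ratio of genes in the same library does not depend on how libraries are scaled, each paralog pair was also compared within cultures. There were 0.101, 0.113 and 0.113 CAB39L reads per CAB39 read in siControl and 0.207, 0.225 and 0.198 in siZEB1. All 3 siZEB1 ratios were above all 3 siControl ratios. The log2 ratio was -3.20 ± 0.096 in siControl and -2.25 ± 0.096 in siZEB1 (SD, n = 3), a difference of 0.95 (exact permutation test, two-sided, p = 0.1, the smallest that 3 against 3 cultures allow). Per kilobase of transcript, CAB39L made up 10.1% ± 0.594 of the scaffold RNA in siControl and 17.9% ± 0.981 in siZEB1, so that CAB39 was still the main scaffold transcript after the knockdown.

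STRADA and STRADB encode the pseudokinases that bind LKB1, bring it to the cytoplasm and open its active site. STRADB (ENSG00000082146, chr2:201387858-201480846, plus strand) had 801, 822 and 713 reads in siControl and 359, 342 and 351 reads in siZEB1. The groups were far apart and each was narrow. STRADB fell from 37.1 ± 0.496 to 18.4 ± 0.616 CPM (SD, n = 3), which is -1.01 on the log2 scale (SE 0.078, adjusted p = 2.51e-08, edgeR quasi-likelihood test). This is a change of -50.5%, the largest loss among the members. Its exons share 4.44% of their bases with TRAK2 on the opposite strand, which had 1617 to 2059 reads per culture in siControl and 1452 to 1623 in siZEB1. How this overlap alters the STRADB count was not tested.

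STRADA (ENSG00000266173, chr17:63682336-63741986, minus strand) was near the limit of counting, with 21, 24 and 32 reads in siControl and 22, 23 and 23 reads in siZEB1. The siZEB1 cultures lay inside the siControl range. The difference was -0.049 on the log2 scale (SE 0.29, adjusted p = 0.909, edgeR quasi-likelihood test), and a change of moderate size was not detectable at this depth. Another protein-coding gene model, AC046185.1, shares 18.1% of the exonic bases of STRADA on the same strand, so that its count is uncertain where reads fall on shared exons.

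The ratio of STRADB to STRADA was lower in every siZEB1 culture. There were 38.1, 34.3 and 22.3 STRADB reads per STRADA read in siControl, the lowest in the third culture, and 16.3, 14.9 and 15.3 in siZEB1. The log2 ratio was 4.92 ± 0.405 in siControl and 3.92 ± 0.068 in siZEB1 (SD, n = 3), a difference of -0.99 without overlap (exact permutation test, two-sided, p = 0.1, the smallest possible). The ratio rests on the few STRADA reads. Per kilobase, STRADB was 96.7% ± 0.949 of the counted STRAD RNA in siControl and 93.8% ± 0.275 in siZEB1. These shares carry the uncertainty of the STRADA count, which their SD does not measure.

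STK11 (ENSG00000118046, chr19:1177558-1228435, plus strand) encodes the kinase LKB1 itself. It had 75.9, 80.6 and 93.4 CPM in siControl and 70.3, 70.8 and 63.4 CPM in siZEB1, so the groups did not overlap, with the third culture the highest of siControl and the lowest of siZEB1. STK11 fell by 0.29 on the log2 scale (SE 0.080, adjusted p = 0.00839, edgeR quasi-likelihood test), or -18.1% in mean level, from 83.3 ± 9.04 to 68.2 ± 4.17 CPM (SD, n = 3). The call rests on the third cultures. Without both of them the log2 fold change was -0.15 and no longer passed (adjusted p = 0.0540), while with any single culture left out the gene was still called. Its exons share 1.72% of their bases with CBARP on the opposite strand, which had 201 to 239 reads per culture in siControl and 102 to 115 in siZEB1. How this overlap alters the STK11 count was not tested.

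**Figure D2:**
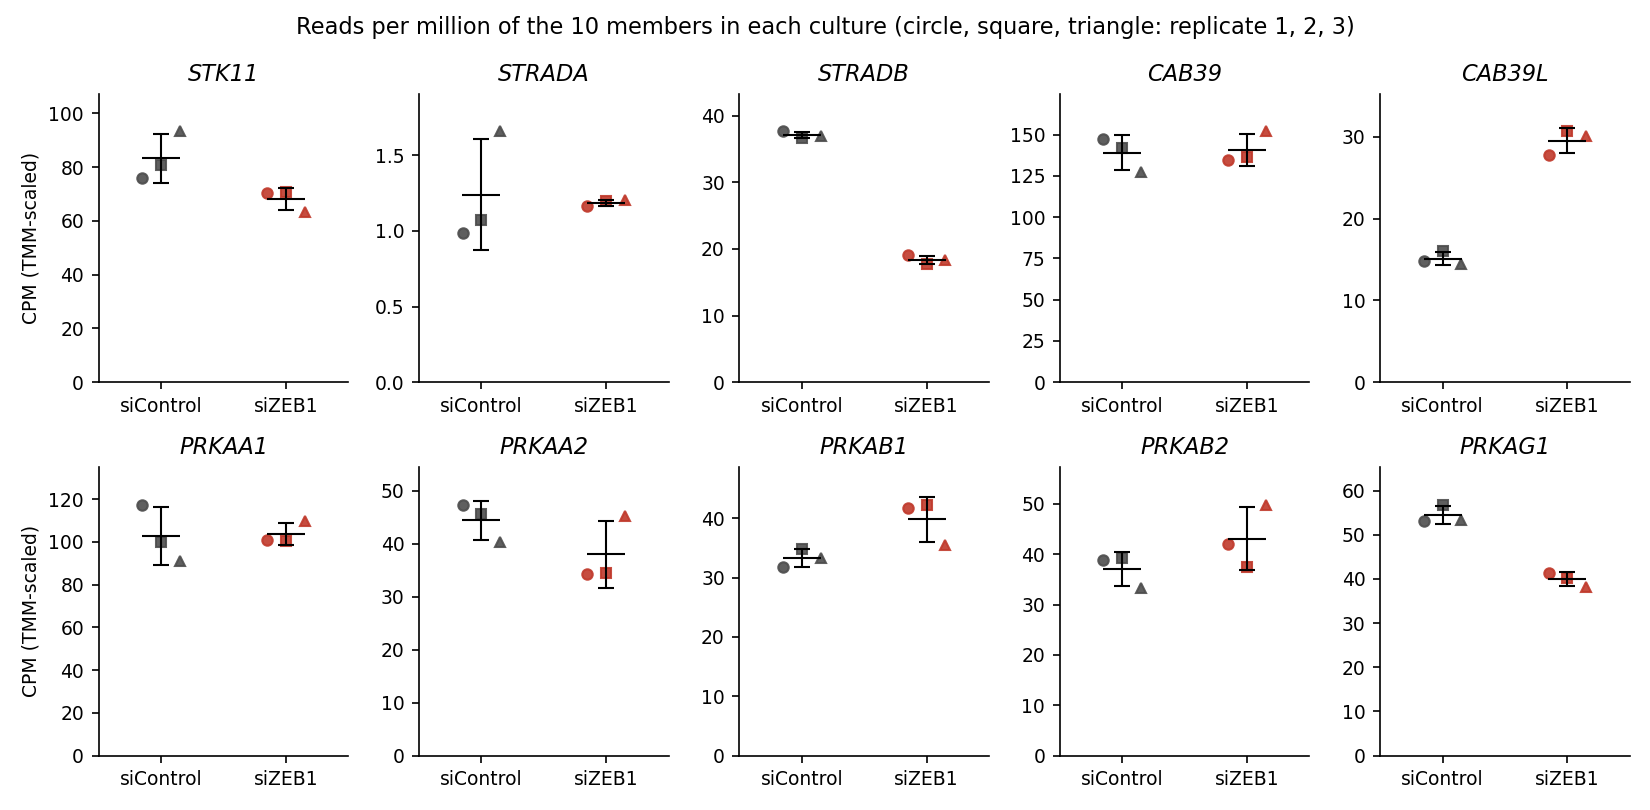
Level of each member in each culture, in CPM after TMM scaling, on axes that start at 0; symbols mark the replicate number, and the black line and bars are the mean and SD of 3 cultures. CAB39L is higher in all 3 siZEB1 cultures (27.8 to 30.7 CPM) than in siControl (14.4 to 16.0 CPM), STRADB is lower in all 3, and for PRKAA2 and PRKAB2 the third cultures lie apart from the other two.

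The catalytic alpha subunits of AMPK, which carry the site that LKB1 phosphorylates, are encoded by PRKAA1 and PRKAA2. PRKAA1 (ENSG00000132356, chr5:40759379-40798374, minus strand) had 117.4, 99.8 and 91.0 CPM in siControl and 101.0, 100.5 and 109.8 CPM in siZEB1. All siZEB1 values lay within the siControl range. PRKAA1 was not called (log2 fold change 0.013, SE 0.082, adjusted p = 0.913, edgeR quasi-likelihood test).

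PRKAA2 (ENSG00000162409, chr1:56645322-56715335, plus strand) gave a result that turned on the choice of cultures. It had 47.4, 45.6 and 40.3 CPM in siControl and 34.3, 34.4 and 45.2 CPM in siZEB1. The first and second siZEB1 cultures were below all siControl cultures, and the third was not. With all 6 cultures the log2 fold change was -0.23 (SE 0.10) and was not called (adjusted p = 0.0832, edgeR quasi-likelihood test). Without siControl 3 it was -0.29 (adjusted p = 0.0117), without siZEB1 3 it was -0.37 (adjusted p = 0.00272), and without both it was -0.43 (adjusted p = 6.08e-07), each in edgeR. It was also called when no filter on low counts was applied (adjusted p = 0.0310, edgeR).

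The PRKAA2 reads per PRKAA1 read were 0.403, 0.457 and 0.443 in siControl and 0.339, 0.342 and 0.412 in siZEB1. The groups overlapped through siZEB1 3. The log2 ratio differed by -0.26 (exact permutation test, two-sided, p = 0.2), and by -0.33 without the third cultures. Per kilobase, PRKAA2 was 19.1% ± 0.987 of the alpha subunit RNA in siControl and 16.5% ± 1.54 in siZEB1 (SD, n = 3), so PRKAA1 was the main alpha transcript in both.

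The beta subunits, which join the alpha and gamma subunits and bind glycogen, are encoded by PRKAB1 and PRKAB2. PRKAB1 (ENSG00000111725, chr12:119667753-119681630, plus strand) had 31.8, 34.8 and 33.3 CPM in siControl and 41.7, 42.3 and 35.4 CPM in siZEB1. The groups did not overlap, although siZEB1 3 lay close to the highest siControl culture. PRKAB1 rose by 0.26 on the log2 scale (SE 0.083, adjusted p = 0.0200, edgeR quasi-likelihood test), from 33.3 ± 1.5 to 39.8 ± 3.80 CPM (SD, n = 3). The call was lost without siControl 1 (adjusted p = 0.0671), without siZEB1 1 (adjusted p = 0.0981) or without siZEB1 2 (adjusted p = 0.102), at log2 fold changes of 0.22, 0.22 and 0.21 in edgeR. Without the third cultures it was 0.33 and still called.

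PRKAB2 (ENSG00000131791, chr1:147155106-147172550, minus strand) had 38.9, 39.3 and 33.2 CPM in siControl and 42.0, 37.4 and 49.8 CPM in siZEB1. Its groups overlapped, and the third cultures were the lowest of one group and the highest of the other. PRKAB2 was not called (log2 fold change 0.21, SE 0.098, adjusted p = 0.0964, edgeR quasi-likelihood test). Of the 13 alternatives, it was called only without siZEB1 2 (log2 fold change 0.31, adjusted p = 0.0271), and without the third cultures its log2 fold change was 0.025. The PRKAB2 reads per PRKAB1 read ranged from 0.998 to 1.22 in siControl and from 0.884 to 1.41 in siZEB1, and the log2 ratio differed by -0.045 (exact permutation test, two-sided, p = 1.0).

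The gamma subunit binds AMP and ADP and so gives AMPK its sensitivity to energy. PRKAG1 (ENSG00000181929, chr12:49002274-49018825, minus strand) had 1128, 1272 and 1029 reads in siControl and 781, 774 and 730 reads in siZEB1. Every siZEB1 culture was below every siControl culture. PRKAG1 fell from 54.4 ± 2.08 to 39.9 ± 1.64 CPM (SD, n = 3), which is -0.45 on the log2 scale (SE 0.071, adjusted p = 8.05e-05, edgeR quasi-likelihood test), and the value without the third cultures was -0.43. Its exons share 12.7% of their bases with DDN-AS1 on the opposite strand, a gene that had 3 to 7 reads per culture. The other gamma genes did not add a call. PRKAG2 had 38.6 ± 4.17 CPM in siControl and 35.9 ± 1.91 CPM in siZEB1 (log2 fold change -0.11, adjusted p = 0.352, edgeR), and PRKAG3 was below the filter on low counts.

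**Figure D3:**
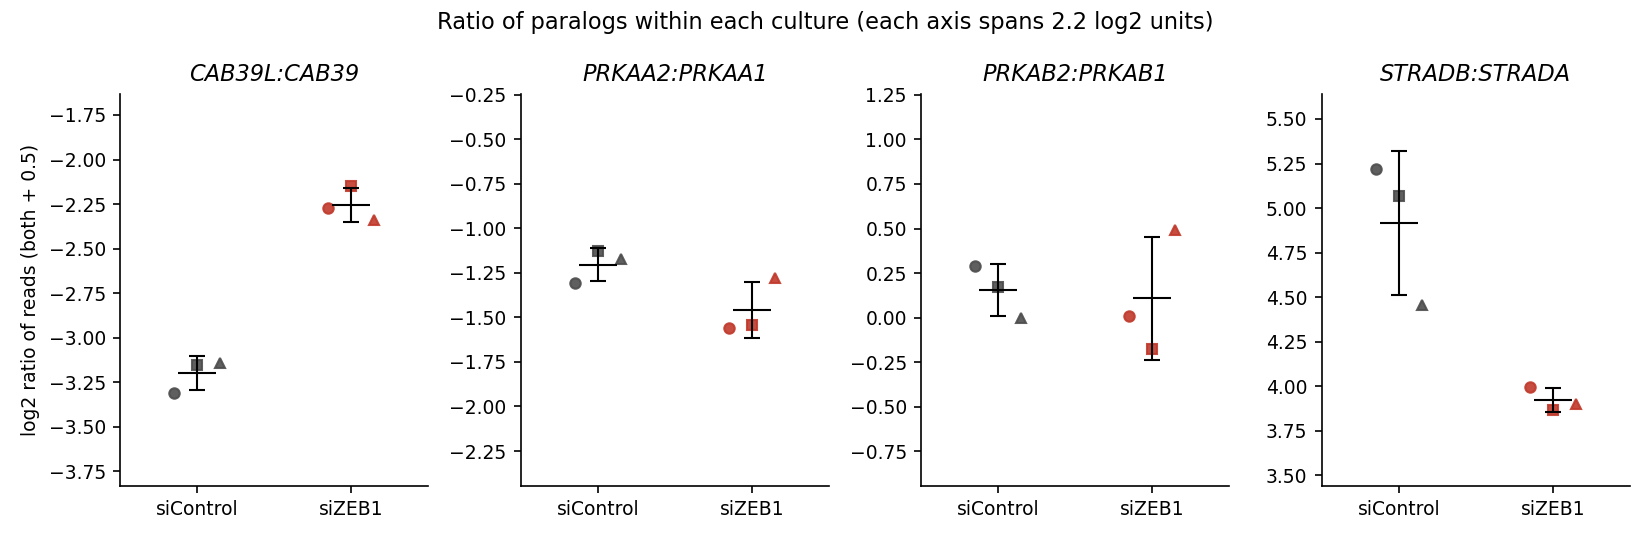
Log2 ratio of reads between paralogs within each culture, 0.5 read added to both, with symbols for the replicate number and the mean and SD of 3 cultures in black; the 4 axes span the same 2.2 log2 units at different positions. The CAB39L:CAB39 ratio is 0.95 higher and the STRADB:STRADA ratio 0.99 lower in siZEB1 without overlap, and the ratios of the AMPK alpha and beta genes overlap between groups.

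To compare levels between genes, CPM were divided by the length in kilobases of 1 transcript per gene. In siControl the order was CAB39 at 36.3, PRKAG1 at 32.0, STK11 at 31.9, PRKAA1 at 20.2, STRADB at 16.2, PRKAB1 at 12.8, PRKAB2 at 6.85, PRKAA2 at 4.75, CAB39L at 4.09 and STRADA at 0.550 CPM per kilobase. CAB39 and PRKAG1, PRKAG1 and STK11, and PRKAA2 and CAB39L overlapped across the 3 cultures, and the other neighbours did not. In siZEB1 the levels of CAB39L at 7.99 and STRADB at 8.02 CPM per kilobase met, where STRADB had been the higher of the pair.

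**Figure D4:**
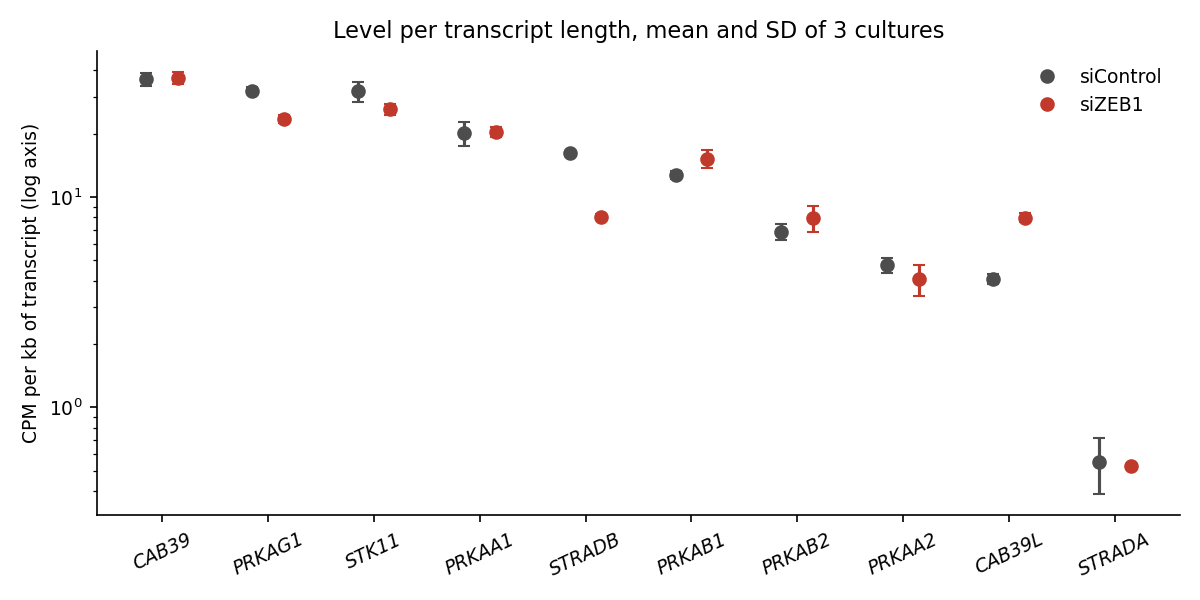
CPM per kilobase of transcript for each member on a log axis, as the mean and SD of 3 cultures, ordered by the siControl level. CAB39L moves from 4.09 up to 7.99 and STRADB from 16.2 down to 8.02 CPM per kilobase. STRADA, whose count is uncertain, is the lowest member in both groups.

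Of all genes with a mean of at least 1 CPM, the 3 whose log2 CPM followed CAB39L most closely over the 6 cultures were GLE1, an mRNA export factor, TMEM87A and GTF2H3, a subunit of the general transcription factor TFIIH. GLE1 had a Pearson r of 0.998 with CAB39L and a mean level of 21.8 CPM in siControl and 42.0 CPM in siZEB1. Such values are a description over cultures that fall into the knockdown and control groups, and 997 of 13196 genes had an r above 0.95. Among the members, STRADB had an r of -0.996 and PRKAG1 of -0.968 with CAB39L. How many of all genes had an r this far below 0 was not counted, so these values show no particular link between the members.

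Genes around the complexes were described in 7 lists of 71 genes in all, of which 67 could be tested. Of these, 17 were higher and 26 lower in siZEB1, so that 64.2% were called against 40.2% of all genes tested. The lists were chosen with earlier results of these data known, and their levels were not matched to those of all genes. These shares are therefore no test of the pathway. The median log2 fold change of the list genes was -0.028. The genes named below are those of each list that were called and changed most. MARK1, PPM1E and PPARGC1A, like PRKAG3, were below the filter on low counts. Adjusted p-values in the following 6 paragraphs are from the edgeR quasi-likelihood test over all genes.

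The AMPK-related kinases are, like AMPK, switched on by LKB1. Of 11 tested, 3 were higher and 4 lower, with a median log2 fold change of 0.0066. NUAK1, a kinase of cell adhesion and myosin control, fell from 74.0 ± 7.03 to 49.1 ± 3.22 CPM (log2 fold change -0.59, adjusted p = 1.66e-05). Its paralog NUAK2 also fell (-0.42, adjusted p = 0.00121), whereas the polarity kinase MARK2 rose from 76.5 ± 3.80 to 101.9 ± 2.13 CPM (0.41, adjusted p = 7.41e-05). BRSK1, a kinase best known from neurons, was at 3.36 ± 0.395 and 2.23 ± 0.547 CPM (-0.59, adjusted p = 0.0294), a call lost in 4 of the 6 fits that leave out a culture.

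Among other kinases and phosphatases that act on AMPK, 3 of 9 were higher and 3 lower, with a median log2 fold change of 0.062. Both calcium/calmodulin-dependent kinase kinases, which phosphorylate AMPK independently of LKB1, fell. CAMKK2 went from 32.6 ± 1.61 to 23.1 ± 0.980 CPM (-0.49, adjusted p = 1.01e-04). CAMKK1 went from 3.78 ± 0.977 to 2.22 ± 0.347 CPM (-0.77, adjusted p = 0.00967), a call lost without siControl 2 (adjusted p = 0.0678). The phosphatase gene PPM1F fell (-0.45, adjusted p = 3.88e-04), and PPP2R1A, the main scaffold subunit of protein phosphatase 2A, rose (0.27, adjusted p = 0.00165).

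The lysosomal and nutrient-sensing regulators included the Ragulator subunits that anchor AMPK and mTORC1 signalling at the lysosome. Here 5 of 12 were higher and 2 lower, with a median log2 fold change of 0.17. SESN2, a stress-induced sestrin that promotes AMPK activity, rose from 22.4 ± 0.048 to 41.7 ± 1.47 CPM (0.90, adjusted p = 6.98e-08). AXIN1, which brings LKB1 to AMPK at the lysosome, rose (0.43, adjusted p = 1.52e-04), as did the Ragulator gene LAMTOR4 (0.40, adjusted p = 0.00408). FLCN, the tumour suppressor folliculin, fell (-0.44, adjusted p = 1.64e-04).

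MO25 proteins also bind germinal-centre kinases outside the LKB1 complex. Of 5 such genes, none was higher and 3 were lower, with a median log2 fold change of -0.21. STK39, which regulates ion cotransporters, fell from 35.4 ± 2.62 to 23.1 ± 0.731 CPM (-0.61, adjusted p = 1.37e-05). STK25 (-0.34, adjusted p = 9.48e-04) and STK24 (-0.21, adjusted p = 0.00986), both linked to cell polarity and migration, fell by smaller amounts.

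AMPK substrates of lipid and glucose metabolism had 2 of 13 higher and 7 lower, with a median log2 fold change of -0.23. GFPT1, the entry enzyme of the hexosamine pathway, fell from 135.2 ± 9.76 to 49.9 ± 2.77 CPM (-1.44, adjusted p = 1.87e-10), the largest change of the 67 genes. TXNIP, an inhibitor of glucose uptake that AMPK marks for degradation, rose from 40.7 ± 3.31 to 89.9 ± 2.17 CPM (1.14, adjusted p = 2.74e-09). TBC1D1, which controls glucose transporter traffic, fell (-0.58, adjusted p = 7.11e-06).

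AMPK substrates of growth, autophagy and mitochondria had 4 of 16 higher and 7 lower, with a median log2 fold change of -0.10. FOXO3, a stress-responsive transcription factor, fell from 119.7 ± 5.07 to 82.3 ± 5.46 CPM (-0.54, adjusted p = 7.32e-06). The CREB coactivator gene CRTC3 (-0.52, adjusted p = 1.45e-04) fell. RPTOR, the defining subunit of mTORC1, fell from 77.2 ± 2.49 to 56.2 ± 4.41 CPM (-0.46, adjusted p = 7.66e-05), and EEF2K, the kinase that slows translation elongation, fell by a like amount (-0.45, adjusted p = 1.25e-04).

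**Figure D5:**
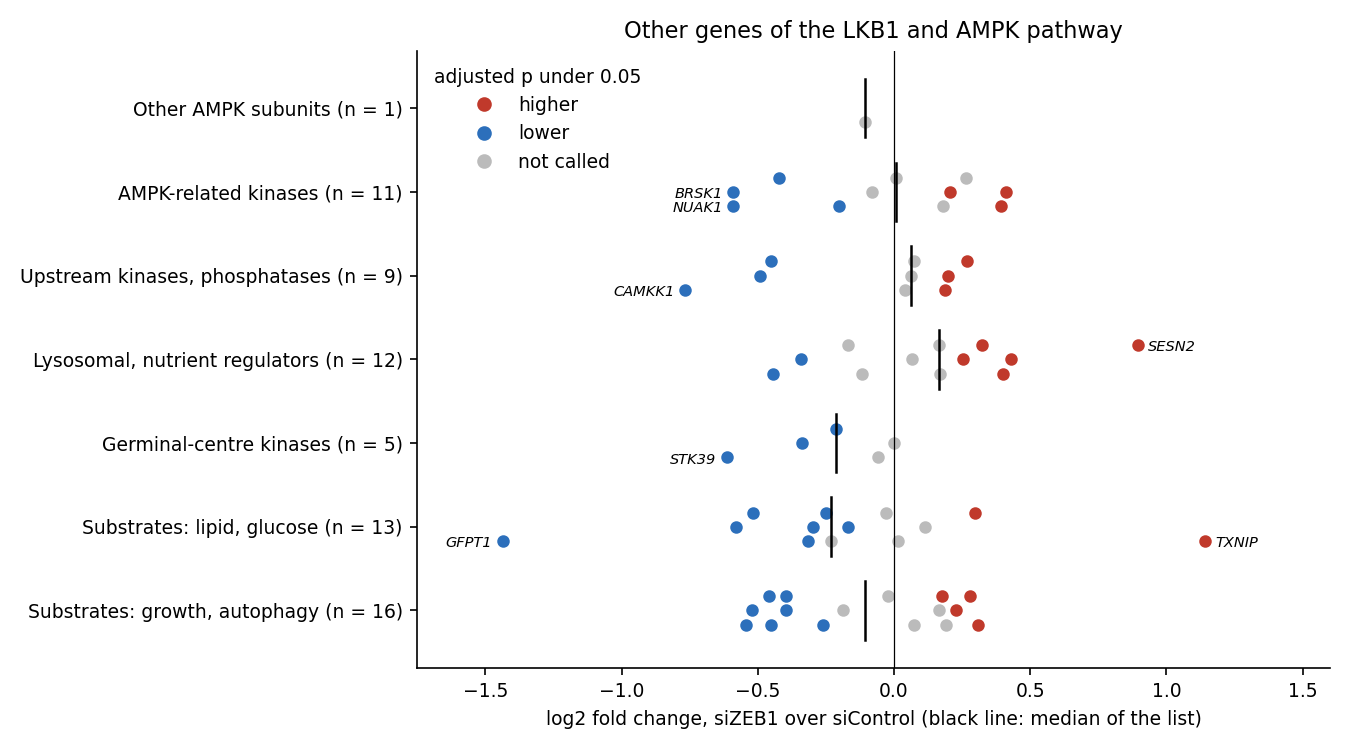
Log2 fold change, siZEB1 over siControl, of the 67 tested genes of the 7 pathway lists, each point 1 gene, coloured by whether the adjusted p was under 0.05, with the median of each list as a black line; points are spread vertically for legibility. The substrate lists and the germinal-centre kinases have medians below zero (-0.10 to -0.23) and the lysosomal regulators a median of 0.17, and GFPT1, TXNIP and SESN2 lie farthest out.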

How the data were processed

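SW480 RNA-seq libraries (3 siControl, 3 siZEB1, called biological replicates in the study's methods) were used. The authors deposited raw read counts per Ensembl gene, not normalized. The submitters' processing notes name Trimmomatic, HISAT2, SAMtools, featureCounts and hg38. The annotation, strand setting and handling of overlaps are not given in the sources used here, so opposite-strand overlaps could raise or lower counts. Genes passing edgeR's filterByExpr (14996) were TMM-normalized and tested two-sided with edgeR's quasi-likelihood test (edgeR 4.0.16, limma 3.58.1, R 4.3.3), with Benjamini-Hochberg adjustment over all of them and a threshold of 0.05. The biological coefficient of variation was 6.58%. Depth was 19040636 to 22357633 counts, so genes near 1 CPM rest on few reads. CPM used TMM-scaled library sizes, and CPM per kilobase used 1 coding transcript per gene (APPRIS level, then longest coding part). Paralog ratios were log2 of reads + 0.5 per culture. Coordinates came from GENCODE 29 on GRCh38, which held 31059 of the 32029 genes, and promoters from RefSeq. The edgeR step was tested on simulated counts. Other steps used Python 3.11.15, numpy 2.4.6, scipy 1.17.1, pandas 2.3.3 and matplotlib 3.10.9. Named genes were ZEB1, the members, up to 4 called genes of each list with the largest change, list genes not tested, the 3 genes most like CAB39L and the markers. A gene that meets this rule is not reported here. Members and lists were chosen with earlier results of these data known. Alternatives were DESeq2 1.42.0, median-of-ratios or total-count scaling, no filter or 10 counts in every culture, a replicate block, other thresholds, pseudocounts of 0 and 5, each culture left out, and, chosen after seeing the data, the third cultures left out together.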

Additional observations from a re-analysis of the deposited data

How the results depend on the processing

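Of 130 member values under 13 alternatives, 111 kept their direction and side of the threshold, and CAB39L, STRADB and PRKAG1 did so in all 13. At a fold above 1.5 with an unadjusted p under 0.05, 2 members (STRADB and CAB39L) were called in place of 5. Over all 14996 genes tested, 2483 met that rule in place of 6035 called in the main test. With single cultures left out, genes called over the whole transcriptome ranged from 4942 of 15342 (without siControl 2) to 6239 of 15366 (without siControl 3). With single cultures left out, members called ranged from 4 to 6, genes called in the pathway lists from 34 to 40 of a main 43, the CAB39L log2 fold change from 0.93 to 1.01, and the log2 ratio differences from 0.89 to 0.99 (CAB39L:CAB39), -1.22 to -0.84 (STRADB:STRADA), -0.35 to -0.21 (PRKAA2:PRKAA1) and -0.24 to 0.098 (PRKAB2:PRKAB1). The last turned direction without siControl 1 (0.023), siZEB1 1 (0.0042) and siZEB1 2 (0.098). By list, calls ranged from 8 to 9 (growth substrates, main 11), 6 to 9 (lipid and glucose substrates), 5 to 8 (AMPK-related kinases), 6 to 8 (lysosomal), 4 to 6 (upstream), 3 to 3 (germinal-centre kinases) and 0 to 0 (other AMPK subunits). Uncalled members changed sign: CAB39 (0.019, range -0.042 to 0.063) was below 0 without siControl 3 (-0.042) or siZEB1 3 (-0.037) and with both left out (-0.095), PRKAA1 (0.013, range -0.068 to 0.12) without siControl 2 (-0.0085), siControl 3 (-0.068) or siZEB1 3 (-0.027) and with both cultures numbered 3 out (-0.11), and STRADA (-0.049, range -0.19 to 0.20) was 0.20 without siControl 3 and 0.20 without both. STK11 lost its call without both (-0.15). The causes were not tested. Same-numbered cultures did not deviate together (r of -0.052, -0.088 and -0.20), which cannot show whether they were handled as pairs. With the replicate number as a block, 4 members and 31 list genes were called, where 4968 of all 14996 genes tested were called. PRKAB1 then had a log2 fold change of 0.25 (adjusted p = 0.0559, edgeR) and CAB39L 0.97. No other member's call changed. Among the germinal-centre kinases 2 were then called in place of 3, STK24 having an adjusted p of 0.0612 (edgeR). Depth limits STRADA, with 21 to 32 reads per culture.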

Other observations

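An earlier scan of these data had picked out the 7-mer GAACACA, and its places in the members are given here as a description. It was found in 4 of the 10 members, where 76.3% of 12359 protein-coding genes tested did not hold it. Each gene was searched in 1 transcript from GENCODE 29 on GRCh38. The 30 bases around each site in the members are shown, with the 7-mer in capitals. The 3 members called lower hold it, STRADB in coding exon 3 (chr2:201458792-201458821), PRKAG1 in coding exon 6 (chr12:49005126-49005155) and STK11 in the 5′UTR (chr19:1206833-1206862). CAB39L, which rose, holds it in the 3′UTR (chr13:49309709-49309738).
STRADB: ctgcacttcaaGAACACAagttgaatcact
PRKAG1: atgagctagaaGAACACAagatagaaactt
STK11: aagggaagtcgGAACACAaggaaggaccgc
CAB39L: cagtctttagtGAACACAtagaaagcctat

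Of 12359 protein-coding genes tested, 11.1% held the 7-mer in the 3′UTR, with a median log2 fold change of -0.23 and 45.2% called lower. A further 11.6% held it in coding sequence only, with a median of -0.12 and 35.4% called lower. In the 76.3% of genes without it, the median was 0.024 and 19.3% were called lower. The 5′UTR alone held it in 0.979% of genes, with a median of 0.010 and 21.5% called lower, and STK11 is in this group. The 7-mer was picked from these same data, so these shares and its places in the members are no test of it. The siRNA sequences are not given in the sources used here, so the 7-mer could not be compared with them. Its part in the values of the members was not tested.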
